A study of Mus musculus with 6 samples.

Results

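The genes described are 10 members of the Sox family of transcription factors that lie outside the core pluripotency circuit: Sox1, Sox3, Sox4, Sox5, Sox6, Sox9, Sox10, Sox11, Sox12 and Sox21. They were found on the arrays through the RefSeq accession of each non-control probe, whatever their values. Of the 10, 8 had a probe, and all 8 passed the filter on dim probes, among 17178 genes with a probe and 13380 genes tested. Sox3 and Sox10 matched no probe and are not described by values. The 8 genes had 15 probes and 24 spots per array: 4 probes for Sox6, 3 each for Sox9 and Sox11, and 1 each for Sox1, Sox4, Sox5, Sox12 and Sox21.

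All cells were P19, an embryonal carcinoma line of the mouse that forms neurons and glia when it is aggregated with retinoic acid. The line AICD/P19 expresses AICD, the intracellular domain cut from the amyloid precursor protein by gamma-secretase, and the line pCDNA/P19 carries the empty vector. Each line was measured undifferentiated, after 4 days of aggregation in 5e-07 M all-trans retinoic acid (aggregated), and after a further 2 days as replated cells (differentiated). Every combination of line and state was hybridised to a single array, which makes 6 arrays without replicate cultures. Aggregation and retinoic acid were applied together, so they cannot be told apart, and the labels do not say whether a line is 1 clone or a pool. Both undifferentiated arrays lay on 1 slide and the other 4 arrays on another, so the slide and the change out of the undifferentiated state cannot be told apart.

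Sox proteins bind DNA through an HMG domain and usually act with a partner factor at the same site. The SoxB1 proteins Sox1 and Sox3 hold neural progenitors in their dividing state, and the SoxB2 protein Sox21 is a repressor that counters them. The SoxC proteins Sox4, Sox11 and Sox12 activate genes of newborn neurons. Sox5 and Sox6, the SoxD proteins, have no activation domain of their own and are known as partners of the SoxE protein Sox9 in cartilage. Sox9 and Sox10 act in neural stem cells, glia and the neural crest.

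Values are normalized log2 signals: log2 of the background-subtracted spot brightness minus the 75th percentile of that array. They compare one probe between arrays, not one gene with another. For probes with replicate spots that were all well above background, the median SD of the spots was 0.067 to 0.078, depending on the array. A difference between 2 arrays below 0.22 is within that spot noise, which holds no variation between cultures. Dim spots can vary more: those of 1 Sox9 probe had an SD of 0.682 on the undifferentiated vector array. Between 62.0% and 65.9% of the 43379 non-control spots were well above background on an array and 0 were saturated. The pluripotency markers averaged 3.54 (vector) and 3.31 (AICD) in undifferentiated cells. By the differentiated state 7 of 8 measured markers fell at a limma adjusted p under 0.05, beside 41.3% of all genes tested. The neuron markers averaged 3.19 and 3.05 in the differentiated state, from -0.77 and -0.63 in the undifferentiated state.

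**Figure D1:**
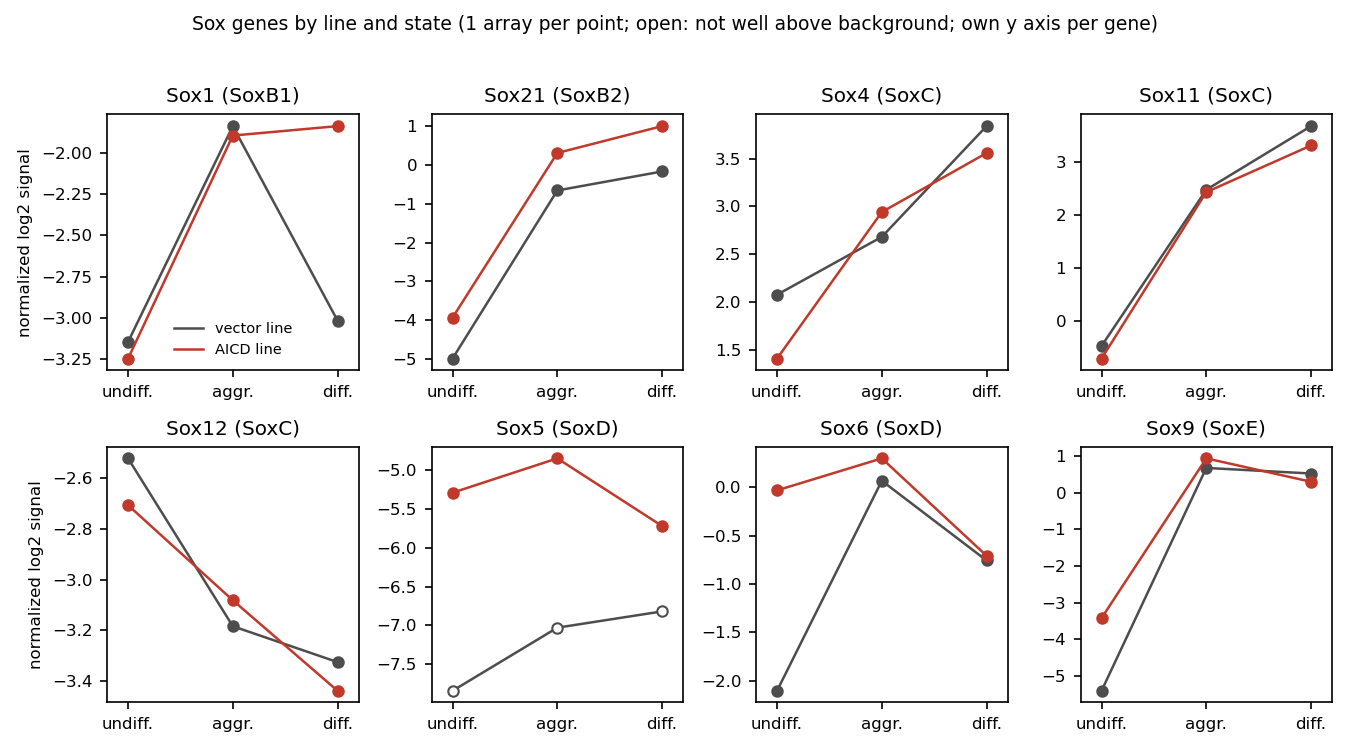
Normalized log2 signal (y axis, a separate scale for each gene) of the 8 measured Sox genes through the 3 states (x axis, from undifferentiated to differentiated), with 1 array per point and 1 coloured line per cell line. Sox1, Sox4, Sox9, Sox11 and Sox21 sit higher on all 4 later arrays than on both undifferentiated arrays, and Sox12 sits lower. For Sox1 the vector differentiated array is higher by only 0.13, within spot noise. The open circles of Sox5 mark vector arrays that were not well above background.

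Aggregation with retinoic acid was accompanied by higher signals of the SoxE gene Sox9, the SoxB2 gene Sox21 and the SoxC genes Sox11 and Sox4. In a limma model with state and line as additive terms, adjusted over all 13380 genes by Benjamini-Hochberg, 4 of the 8 measured Sox genes rose from the undifferentiated to the aggregated state and none of the 8 fell. Over all genes tested 42% changed in this step, 14.3% upward and 27.8% downward. The median fitted difference was 1.29 for the 8 Sox genes and -0.30 for all genes tested, so most genes moved against the direction of these 4. The arrays of both states did not overlap for 7 of the 8, beside 76.7% of all genes. From the undifferentiated to the differentiated state 5 of the 8 changed, the same 4 upward and Sox12 downward, against 61.4% of all genes (20.1% upward, 41.3% downward). There 6 of the 8 did not overlap, beside 82% of all genes.

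The calls for single genes depend on few arrays. The test takes its spread from how the gap between the lines varies over the states, with 2 residual degrees of freedom, so no p-value measures a spread between cultures. Without the vector aggregated array, or without the AICD aggregated array, 0 of the 8 Sox genes and 0 of all genes passed in the aggregation step. Without the vector and without the AICD aggregated array, the fitted differences were 4.91 and 5.53 for Sox9, 4.22 and 4.37 for Sox21, 3.17 and 2.92 for Sox11, and 1.44 and 0.70 for Sox4.

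**Figure D2:**
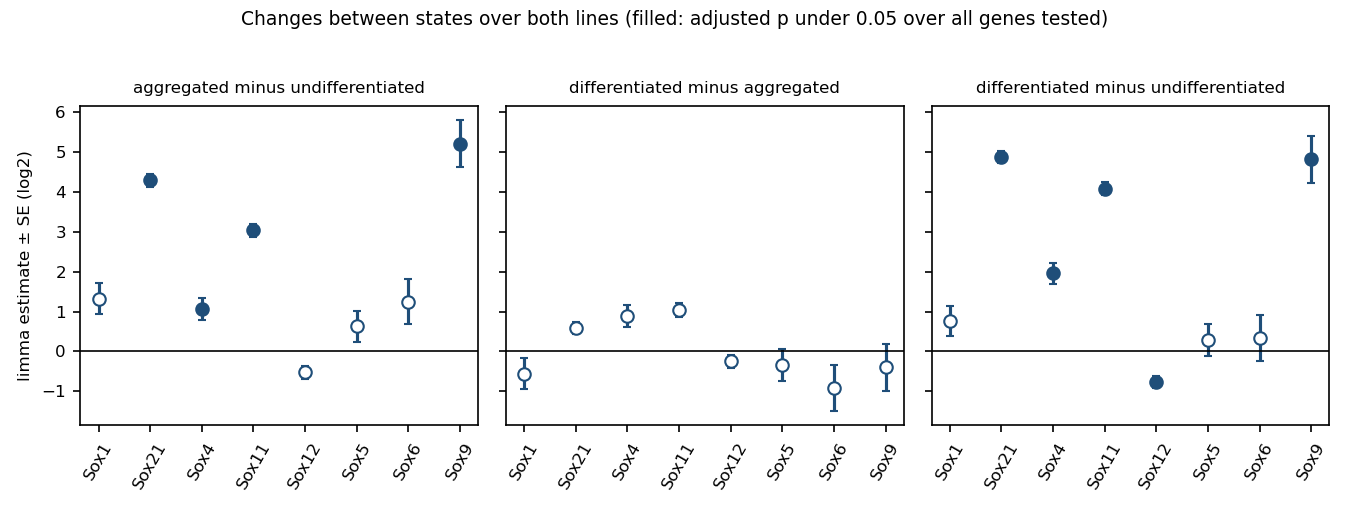
Fitted change (y axis, log2, limma estimate with its standard error as the bar) of the 8 measured Sox genes (x axis) between each pair of states over both lines, with filled points for an adjusted p under 0.05. The points of Sox9, Sox21 and Sox11 lie between 3.04 and 5.22 in the aggregation step and between 4.09 and 4.88 over the whole course, and no point of the replating step is filled.

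The stretches upstream of the genes that moved together are shown for the 2 SoxC genes and Sox21, which rose, and for Sox12, the SoxC gene that fell over the whole course. Each holds the 250 bases before the RefSeq start in GRCm38.p6, all on the minus strand and printed 5′ to 3′ as the gene is read. Sox4 lies at chr13:28953700-28953949, Sox11 at chr12:27342719-27342968, Sox21 at chr14:118237031-118237280 and Sox12 at chr2:152398047-152398296. Capitals mark 3 motifs on either strand. They are the CCAAT box, the GC box GGGCGG bound by Sp1, and the half-site AGGTCA of nuclear receptors such as the retinoic acid receptors.
Sox4: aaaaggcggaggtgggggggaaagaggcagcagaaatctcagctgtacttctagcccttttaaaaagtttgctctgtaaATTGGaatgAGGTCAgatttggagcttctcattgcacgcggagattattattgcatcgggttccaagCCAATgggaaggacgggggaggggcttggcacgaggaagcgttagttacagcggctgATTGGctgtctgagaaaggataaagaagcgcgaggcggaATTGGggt
Sox11: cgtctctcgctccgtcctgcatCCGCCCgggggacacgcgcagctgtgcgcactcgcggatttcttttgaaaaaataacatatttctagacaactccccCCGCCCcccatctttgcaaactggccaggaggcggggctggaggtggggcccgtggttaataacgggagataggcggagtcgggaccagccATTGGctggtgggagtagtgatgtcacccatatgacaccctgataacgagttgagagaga
Sox21: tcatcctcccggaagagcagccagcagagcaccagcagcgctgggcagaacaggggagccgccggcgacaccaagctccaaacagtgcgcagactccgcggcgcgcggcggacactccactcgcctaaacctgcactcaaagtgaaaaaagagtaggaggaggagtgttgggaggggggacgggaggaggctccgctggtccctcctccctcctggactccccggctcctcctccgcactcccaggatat
Sox12: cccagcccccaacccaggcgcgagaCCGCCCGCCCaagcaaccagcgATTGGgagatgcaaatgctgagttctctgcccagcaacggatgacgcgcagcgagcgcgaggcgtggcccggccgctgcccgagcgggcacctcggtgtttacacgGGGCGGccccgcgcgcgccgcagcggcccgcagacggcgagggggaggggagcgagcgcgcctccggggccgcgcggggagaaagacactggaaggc

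The 4 stretches do not share a motif set. Sox4 held 4 copies of CCAAT and 1 of AGGTCA, Sox11 held 2 of GGGCGG and 1 of CCAAT, Sox12 held 3 of GGGCGG, 2 of them overlapping, and 1 of CCAAT, and Sox21 held none of the 3 motifs. Among 32851 stretches of this length in the RefSeq table, 33.8% held CCAAT, 32.7% held GGGCGG and 14% held AGGTCA. Sox21 also lacked the E-box CANNTG, which 66.2% of all stretches held, while Sox12 held the POU octamer ATGCAAAT, present in 1.6%. None of the 4 held the Sox site AACAAT (9.42% of all stretches) or TATAAA (12.4%). The Sox12 stretch had 35 CpG dinucleotides and 74.4% G and C, Sox11 and Sox21 had 17 CpG each, and Sox4 had 11, against a median of 6 CpG and 52.4% G and C. Such matches describe these letters and are not evidence of binding. The table held 7 of the 10 genes, with 12 starts, 6 of them of Sox6.

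Sox1, the SoxB1 gene of early neural plate cells, followed the same course in both lines until replating. Its signal was -3.14 and -3.24 (vector, AICD) before aggregation, -1.84 and -1.90 after it, and -3.02 and -1.84 after replating. Both aggregated arrays and the AICD differentiated array lay between -1.90 and -1.84, and both undifferentiated arrays and the vector differentiated array lay between -3.24 and -3.02. The fitted difference of 1.33 ± 0.39 (SE) on aggregation missed the threshold in limma (adjusted p = 0.0576), although the groups of arrays did not overlap. It passed with the 4 arrays of these states alone (adjusted p = 0.0329). Between aggregates and replated cells the vector line differed by -1.17 and the AICD line by 0.06, which left the differentiated AICD array 2.26-fold above the vector array.

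Sox21 was low in undifferentiated cells of both lines and rose by 4.29 ± 0.15 on aggregation (limma adjusted p = 0.00679). The signal was -4.99 and -3.93 (vector, AICD) when undifferentiated, -0.65 and 0.31 when aggregated, and -0.16 and 1.01 when differentiated. The AICD array was the higher one in each state, by 1.06, 0.97 and 1.17, and the lowest aggregated array lay 3.28 above the highest undifferentiated one. A further difference of 0.59 ± 0.15 on replating was not called (limma adjusted p = 0.0985). Over the whole course the rise was 4.88 ± 0.15 (limma adjusted p = 0.00496), and it kept its call when any 1 array was left out. The size of the rise depends on the background correction: with normexp it was 2.71 on aggregation and 3.19 over the whole course (limma adjusted p = 0.00562 and 0.00231).

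Among the SoxC genes, Sox11 and Sox4 rose and Sox12 fell. Sox11, the SoxC gene most closely tied to newborn neurons, had signals of -0.48 and -0.71 (vector, AICD) in undifferentiated cells, 2.47 and 2.43 in aggregates and 3.67 and 3.31 after replating. The 2 lines differed by 0.04 to 0.37, less than any step between states. Its rise was 3.04 ± 0.16 on aggregation (limma adjusted p = 0.00752) and 4.09 ± 0.16 over the whole course (limma adjusted p = 0.00496). On replating the difference was 1.04 ± 0.16, positive in both lines, with a limma adjusted p of 0.0751 in a step where 0% of all genes were called. Its call depends on the processing there: the adjusted p was 0.0377 with normexp background correction and 0.0469 with an intensity trend in the prior. The share of all genes called with these alternatives is not given, so they do not set Sox11 apart.

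The other Sox11 probes gave the same direction with smaller sizes. Averaged over the lines, the whole course gave 4.09 on the probe used, 2.30 on the second and 1.84 on the third. All 3 were well above background on all 6 arrays, so the size of the rise depends on the probe. With the mean of the 3 probes it was 2.00 on aggregation (limma adjusted p = 0.0119).

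Sox4, which promotes survival and differentiation of neural precursors, was at 2.07 (vector) and 1.41 (AICD) undifferentiated, 2.68 and 2.94 aggregated, and 3.84 and 3.56 differentiated. The states did not overlap, and the undifferentiated AICD array was the lowest. The gene rose by 1.07 ± 0.27 on aggregation (limma adjusted p = 0.0434) and by 1.96 ± 0.27 over the whole course (limma adjusted p = 0.00919). The aggregation call was lost without any 1 of the 6 arrays (adjusted p 0.0668 to 0.197). The whole-course call was lost without the vector differentiated array (adjusted p = 0.0641). The vector line took its larger step on replating (0.61, then 1.16), the AICD line on aggregation (1.53, then 0.62), and that contrast was not tested.

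Sox12, the weakest activator of the SoxC proteins, moved the other way and by less. Its signal was -2.52 and -2.71 (vector, AICD) in undifferentiated cells, -3.18 and -3.08 in aggregates and -3.33 and -3.44 after replating. It fell by 0.77 on the log2 scale over the whole course (limma adjusted p = 0.0193, SE 0.16), beside a median of -0.44 for all genes. The difference on aggregation was -0.52 ± 0.16 (limma adjusted p = 0.0652). The call over the whole course was lost without any 1 of the 6 arrays (adjusted p 0.0509 to 0.0943).

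Neither SoxD gene was called between states in limma. Sox6, a partner of Sox5 that also delays oligodendrocyte maturation, was at -2.10 (vector) and -0.03 (AICD) in undifferentiated cells. Both lines came together in aggregates (0.07 and 0.30) and after replating (-0.76 and -0.71). The vector line thus changed by 2.17 on aggregation and the AICD line by 0.33, and over the whole course the vector line was higher by 1.35 and the AICD line changed by -0.68. With lines that disagree, the fitted aggregation difference of 1.25 ± 0.57 was not called (limma adjusted p = 0.146). Without the undifferentiated AICD array it was 2.22 (limma adjusted p = 0.0214), and without the undifferentiated vector array it was 0.28 (limma adjusted p = 0.405).

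Of the other 3 Sox6 probes, 2 repeated the gap between the undifferentiated lines, at 2.05 and 2.15. The fourth was not well above background on the undifferentiated vector array and was at least 1.33-fold higher on the AICD one. In vector aggregates 3 probes were higher than in undifferentiated vector cells by 1.59 to 2.17, and the fourth at least 2.22-fold. Both folds of the fourth probe are taken from its dim vector reading itself.

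Sox5, the other SoxD gene, was near the detection limit. In the AICD line its probe read -5.29 undifferentiated, -4.85 aggregated and -5.72 differentiated, well above background each time. The vector line gave -7.84, -7.03 and -6.82 in the same order, and none of these was well above background. The AICD signal was at least 1.52-fold, 2.12-fold and 1.22-fold higher in the 3 states, taken against the lowest signal that counted as well above background. Over all states the bound was at least 1.58-fold, and the fitted line difference was not called (limma adjusted p = 0.150). This detection pattern was shared by 19 of the 13380 genes, 0.142%. Sox5 passed the filter through the same detection calls, so that share is no support for a line difference. State changes of Sox5 were not called (limma adjusted p 0.256 to 0.595).

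Sox9, the SoxE gene, had the largest fitted rise on aggregation of the 8. Its signal was -5.40 (vector) and -3.42 (AICD) in undifferentiated cells, 0.67 and 0.93 in aggregates, and 0.52 and 0.30 after replating. All 4 later arrays lay within 0.64 of each other and at least 3.72 above the undifferentiated ones. The rise was 5.22 ± 0.59 on aggregation (limma adjusted p = 0.0132) and 4.82 ± 0.59 over the whole course (limma adjusted p = 0.00819). Taken line by line it was 6.08 (vector) and 4.36 (AICD), and the undifferentiated arrays differed by 1.98. Over the whole course the call was lost without the vector differentiated array (adjusted p = 0.0534), and with normexp the rise was 3.19 (adjusted p = 0.00202).

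Agreement between the Sox9 probes was partial. The second probe, printed as 10 spots, was not well above background on the undifferentiated vector array, where its spots had an SD of 0.682. It was 4.52 higher in aggregates of the AICD line and at least 63.2-fold higher in those of the vector line, and the undifferentiated AICD array was at least 3.33-fold above the vector one. The third failed the call of well above background on both undifferentiated arrays, so it measures no line difference there. Its aggregates were at least 3.02-fold (vector) and at least 3.34-fold (AICD) higher.

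**Figure D3:**
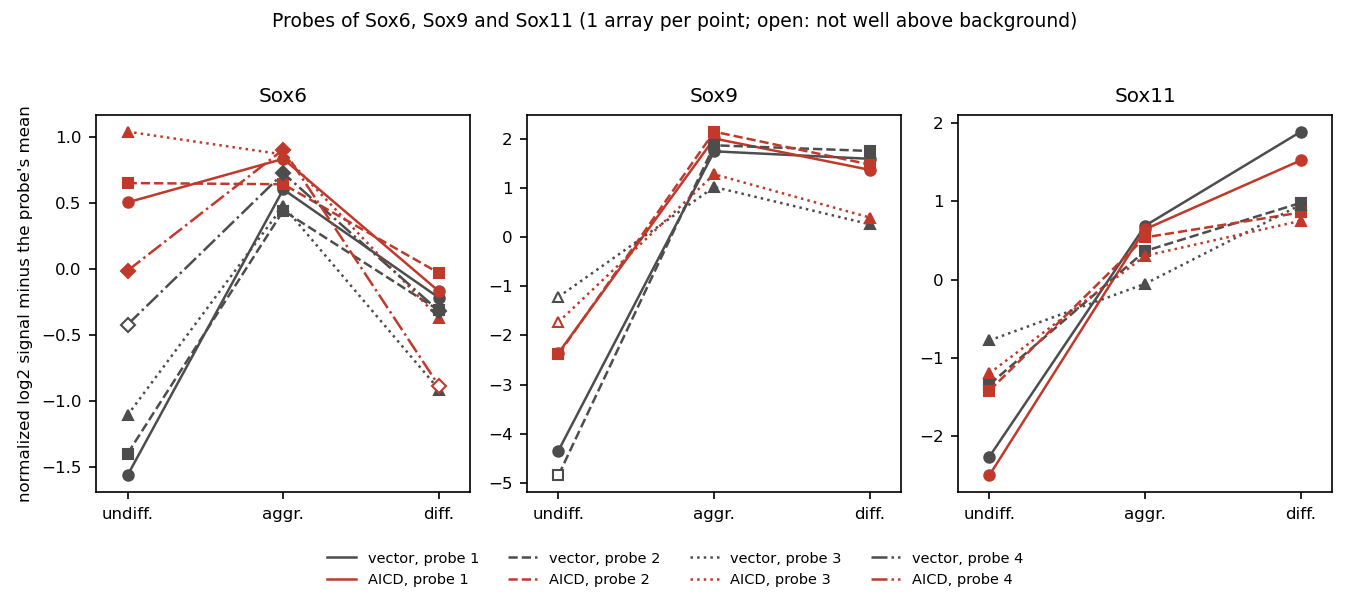
Normalized log2 signal of each probe minus its own mean over the 6 arrays (y axis) for Sox6, Sox9 and Sox11 in the 3 states (x axis), with 1 array per point, colour for the cell line, line style for the probe and open symbols where the probe was not well above background. Every probe of Sox9 and Sox11 rises from undifferentiated to aggregated cells, and the gap between the undifferentiated lines is wide on 3 of the 4 Sox6 probes.

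Replating gave no call for any of the 8 Sox genes, nor for any of the 13380 genes (0%). At an unadjusted p under 0.05 limma listed 3 of the 8 (Sox11, Sox4 and Sox21, all higher) and 4347 of all genes, 32.5%. The arrays did not overlap for 5 of the 8, beside 63.8% of all genes. Restricted to the second slide, which holds all 4 arrays of this step, the test again called 0 of the 8 and 0 of all genes. The 5 genes without such a p had negative differences, from -0.25 (Sox12) to -0.91 (Sox6).

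The lines were set against each other over the 3 states, with 1 line for each construct. None of the 8 Sox genes was called in limma, beside 0.351% of all genes (47 of 13380). The median difference was 0.51, or 0.50 with Sox5 at its bound, against 0.00 for all genes. State by state, over 7 Sox genes detected on both arrays, the medians were -0.10 undifferentiated, 0.23 aggregated and -0.11 differentiated. All genes gave -0.06, 0.02 and 0.02. Positive differences numbered 3, 5 and 3 of 7 in the same order, so the set was not higher throughout. At an unadjusted p under 0.05 there were 2 of the 8, Sox21 and Sox5, and 12.5% of all genes. The 3 arrays of each line did not overlap for 1 of the 8, Sox5, beside 5.12% of all genes. Sox5 passed the filter through its AICD arrays alone, and none of its vector readings was well above background. Its unadjusted p and its lack of overlap rest on those dim readings and are no support for a line difference. Sox21 came nearest, with a difference of 1.06 ± 0.12 (95% interval 0.72 to 1.41, adjusted p = 0.0834) that had the same sign in all 3 states. On the second slide alone it was 1.07 (adjusted p = 0.138), and with normexp background correction it was 0.69 (adjusted p = 0.293). The adjusted p of the 6 genes other than Sox21 and Sox5 lay between 0.587 and 0.899. Their 95% intervals reached 2.08 for Sox6 and 2.01 for Sox9, and 0.43 in size for Sox12 and 0.59 for Sox11. These intervals, like that of Sox21, hold no spread between cultures, so they set no limit on the size of a line difference.

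Within single states, differences of at least 2-fold were found where both arrays were well above background. In undifferentiated cells 3 of 7 Sox genes were that far apart, all higher in the AICD line: Sox6 (4.20-fold), Sox9 (3.95-fold) and Sox21 (2.08-fold). Of all genes 8.32% were that far apart, and 4.21% were higher in the AICD line. In aggregates it was 0 of 7, against 7.33%, with Sox21 nearest at 0.97. In differentiated cells it was 2 of 7, Sox1 (2.26-fold) and Sox21 (2.25-fold), both higher in the AICD line, against 8.54% (4.6% higher). Each of these sets 1 array against 1 array and has no test. With normexp background correction only Sox6 stayed 2-fold apart in undifferentiated cells and only Sox21 in differentiated cells.

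Within the vector line, 5 of 7 Sox genes were at least 2-fold higher in aggregates than in undifferentiated cells: Sox1, Sox6, Sox9, Sox11 and Sox21. Of all genes 11.9% were at least 2-fold higher there, and 33.9% were 2-fold apart in either direction. On replating 3 of 7 were 2-fold apart (22.4%), Sox4 and Sox11 higher and Sox1 lower, and over the whole course 5 of 7 (50.7%). The AICD line had 5 of 8 on aggregation, all higher (27.9% in either direction, 10.8% higher): Sox1, Sox4, Sox9, Sox11 and Sox21. On replating it had 1 of 8 (11.2%), Sox6 at -1.01, and over the whole course 5 of 8 (37.8%). On the probes used, the signals of Sox1, Sox9, Sox11 and Sox21 were thus at least 2-fold higher after aggregation in each line taken alone. The third Sox11 probe rose by 0.72 in the vector line, which is less than 2-fold.

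**Figure D4:**
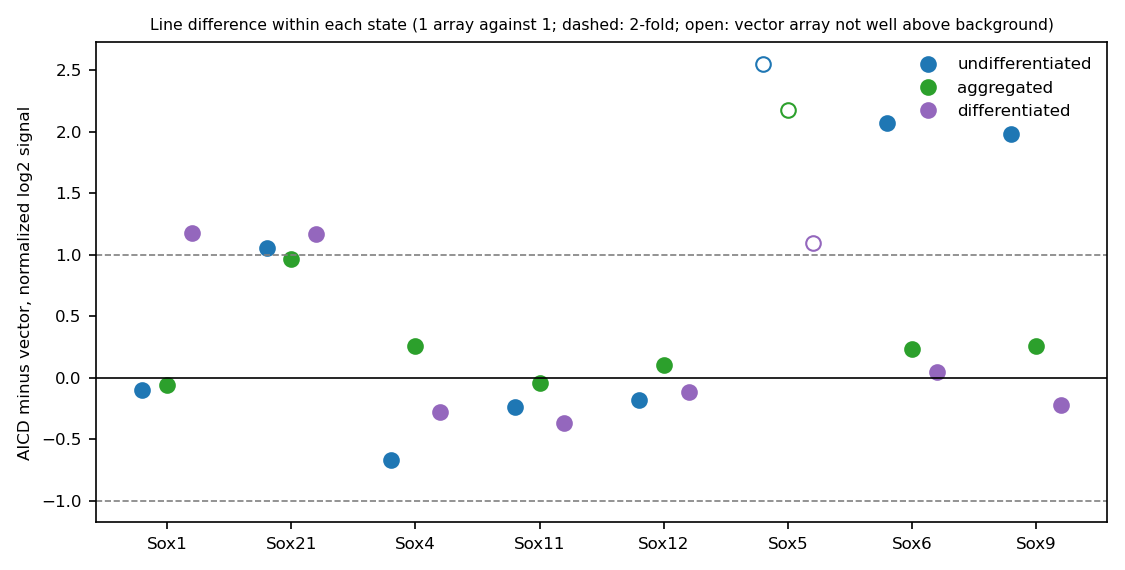
Difference between the AICD and the vector array (y axis, log2, 1 array against 1) for each Sox gene (x axis) in each of the 3 states (colours), with dashed lines at 2-fold and open circles where the vector array was not well above background. Sox21 lies between 0.97 and 1.17 in all 3 states, while Sox6 and Sox9 reach 2.07 and 1.98 in undifferentiated cells and lie between -0.23 and 0.26 later.

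Other transcripts differed between the lines beside these Sox genes. All 8 mesenchyme markers had negative line differences, with 0 called, and their mean was -0.82 and 0.74 in the aggregated and differentiated vector line but -3.88 and -4.64 in the AICD line, where Thy1 and Pdgfrb were not well above background. Pluripotency markers averaged -2.49 and -2.74 in those vector arrays and 0.29 and -0.36 in the AICD arrays. Hes5, a Notch target of neural progenitors, was at 5.94 and 5.81 in aggregated and differentiated vector cells, and at -5.63 (not well above background) and -5.47 in AICD cells. In such bulk samples fewer cells of a type and less RNA per cell cannot be told apart. The part of these differences in the Sox values was not tested.

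The retinoic acid response list also moved with the states: 6 of its 7 measured genes rose on aggregation and 1 fell, beside 14.3% and 27.8% of all genes. Its means in aggregates were 2.25 (vector) and 2.10 (AICD). By the differentiated state the means were -1.95 and -1.39, close to the -2.16 and -1.96 of undifferentiated cells, while Sox9, Sox21, Sox4 and Sox11 were still high. The part of retinoic acid in the Sox values was not tested.

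Other genes of the pathways in which these factors act were counted from lists. Of 12 measured progenitor genes and POU partners of the SoxB proteins, 5 rose and none fell on aggregation, beside 14.3% and 27.8% of all genes, and the list median was 1.91. Fabp7, a fatty acid binding protein of radial glia, rose by 6.69 ± 0.35 (limma adjusted p = 0.00752). Pou3f2, a POU partner of SoxB proteins, was not well above background in undifferentiated cells and at least 26.1-fold higher in aggregates (limma adjusted p = 0.00679). Hes5 had a fitted difference of 3.65 ± 2.38 and was not called (limma adjusted p = 0.265). Over the whole course 4 of the 12 rose and none fell, beside 20.1% and 41.3% of all genes.

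Of 13 genes of newborn neurons linked to SoxC proteins, 8 rose and none fell on aggregation, beside 14.3% and 27.8% of all genes. Over the whole course 10 rose and 1 fell, beside 20.1% and 41.3%, with a median of 3.05, or 2.67 with the gene that was dim in 1 state at its bound. Dcx, a microtubule protein of migrating neurons, rose by 7.45 ± 0.37 on aggregation (limma adjusted p = 0.00748) and by 9.51 over the whole course. Map2, of dendrites, rose by 4.72 and 6.01 (SE 0.39). On replating Stmn2, Gap43 and Dcx had differences of 2.32, 2.23 and 2.06, and none was called (limma adjusted p 0.0752 to 0.100), as with Sox11 and Sox4.

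Of 8 measured cartilage genes that Sox9 binds with Sox5 and Sox6, 2 rose and 2 fell on aggregation, with a median of 0.32. Over all genes 14.3% rose and 27.8% fell, so the lower count is near the background. Acan, the main cartilage proteoglycan, fell by 3.51 on the log2 scale (SE 0.21, limma adjusted p = 0.00799). Col2a1, the collagen of cartilage, had a difference of 1.94 ± 0.59 that missed the threshold (limma adjusted p = 0.0630). Over the whole course 2 of the 8 rose and 2 fell, beside 20.1% and 41.3% of all genes. Col11a2 rose by 2.70 ± 0.16 (limma adjusted p = 0.00496). Acan fell by 3.81 on the log2 scale, and Matn3, dim when differentiated, was at least 5.6-fold lower (limma adjusted p = 0.00496 for each). Between the lines Matn3, a matrix protein of cartilage, was the 1 gene called, higher in the AICD line (limma adjusted p = 0.0343); it was well above background on 2 AICD arrays and 1 vector array, so no fold is given.

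Of 14 measured genes of the neural crest and glia linked to Sox9 and Sox10, 4 rose and 3 fell on aggregation, with a median of 0.81, or 0.75 with genes dim in 1 state at their bound. Over all genes 14.3% rose and 27.8% fell, so the lower count is near the background here too. Pax3, a factor of the dorsal neural tube and crest, was not well above background in undifferentiated cells and at least 110-fold higher in aggregates (limma adjusted p = 0.0118). Foxd3, expressed in pluripotent cells and in the crest, fell by 5.05 on the log2 scale (SE 0.58, limma adjusted p = 0.0132). Snai2, which drives crest delamination, had a line difference of -4.08 ± 0.52 and was not called (limma adjusted p = 0.0953). The lists were chosen by known role, and their counts say nothing about what controls these genes.

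The rest of the family was measured beside these genes: of 10 listed Sox genes, 9 had a probe and 5 were tested. Sox2, the SoxB1 protein of the pluripotency core, was at 3.72 and 3.25 (vector, AICD) undifferentiated, 3.37 and 2.89 aggregated and 1.88 and 2.46 differentiated. It fell by 1.31 on the log2 scale over the whole course (SE 0.34, limma adjusted p = 0.0321), and the aggregation difference was -0.36 (limma adjusted p = 0.422). Sox15, a close relative of the SoxB1 genes expressed in pluripotent cells, fell by 1.39 on aggregation and fell by 1.71 over the whole course (limma adjusted p = 0.0130 and 0.00683). Sox8, the remaining SoxE gene, was not well above background in undifferentiated cells and was at least 3.0-fold higher when differentiated (limma adjusted p = 0.0354). Sox13, the third SoxD gene, was at 1.29 and -1.62 (vector, AICD) undifferentiated, a gap of -2.91 opposite to that of Sox6, and at -0.48 and 0.89 differentiated. Sox17 was well above background on all 6 arrays on the probe used and was not called in any comparison (limma adjusted p 0.293 to 0.960). Its AICD minus vector difference was 1.05 undifferentiated, -0.94 aggregated and -0.38 differentiated. Sox7 was well above background on the vector aggregated array alone, and Sox18, Sox30 and Sry on no array.

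The genes whose profiles over the 6 arrays lay nearest were found by the root mean square difference of profiles centred on their own mean. The search covered 11300 genes well above background throughout, with symbols of clone or predicted-gene style left out. For Sox4 they were Rnf122 (0.109) and Snx32 (0.116), and for Sox11 Mvb12b (0.139) and Madd (0.153). Dach1 was nearest to Sox9 (0.185), with Srgap3 next at 0.442, and Onecut1 was nearest to Sox21 (0.251), with Fam181b at 0.467. Igdcc3 and Ring1 were nearest to Sox1 (0.200 and 0.211), H1f10 and Zfpm1 to Sox6 (0.228 and 0.289), and Glrx3 and Syf2 to Sox12 (0.038 and 0.040). Among the Sox genes themselves, the nearest pair was Sox9 and Sox21 (0.692) and the farthest Sox9 and Sox12 (2.74). The 6 arrays of a profile share 3 states and 2 lines, so likeness describes these arrays only.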

How the data were processed

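Cy3-labelled cRNA of 6 P19 samples was read on Agilent single-colour arrays with Feature Extraction 10.1.1.1, per the submitters' processing notes and the file headers. The deposited processed signal is an intensity: background-subtracted spot brightness, not scaled between arrays. The authors' own deposited value per probe is a score. Rebuilt from the scanner data as log2 signal less the 75th percentile of its array and less the median of its probe (small values blank, negative ones stored as minus the reciprocal), 99.3% to 99.7% of its listed values matched within 0.01. It is blank on every array for 23201 of 41174 probes and served as an alternative only.

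Spots of a probe were averaged, log2 was taken and the array's 75th percentile subtracted. Probes got symbols through RefSeq accessions (24844 of 41174), and 27 without a value on at least 1 array were left out. Probes detected (well above background) on fewer than 2 arrays were dropped, and the probe with the highest mean stood for its gene. Models were fitted with limma 3.58.1 in R 4.3.3 (with the package data.table, version 1.17.8), with terms for state and line. They had 2 residual degrees of freedom and a prior worth 2.05, adjusted by Benjamini-Hochberg over 13380 genes at 0.05 (two-sided). Recovery of the fitted differences was checked on simulated data with the same SD for every gene, which does not check the p-values given here. Nothing in the labels says that arrays came from separate cultures, so the spread may be technical. The number of arrays limits the precision. Against dim arrays a fold is written as "at least", from the lowest signal that was well above background there. Where the dim reading itself was higher than that signal, the fold is taken from the dim reading.

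The named genes are the 10 Sox genes, up to 3 genes with the largest fitted difference per list and comparison, and for each Sox gene well above background on all 6 arrays the 2 nearest profiles. Sox genes of the rest of the family outside this rule (Sox7, Sox18, Sox30, Sry) were named after their values were seen. The members and lists were chosen with earlier results of these data known. Alternatives were normexp background correction (offset 50, on the median spot signal), quantile normalization, other filters, the mean of probes, a trended prior, the second slide alone, the compared states alone, and each array left out. Upstream sequences come from RefSeq, GRCm38.p6; the files' header names build mm9, so no other coordinates are given.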

Additional observations from a re-analysis of the deposited data

Results flagged for a closer look

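For 3 genes the 2 lines, or the 3 states, moved in opposite directions by more than spot noise on the probe used. None of these differences was tested, since each rests on 1 array per line and state. The AICD line minus the vector line was -0.67 for Sox4 in undifferentiated cells, 0.26 in aggregates and -0.28 after replating. For Sox9 the same difference was 1.98 in undifferentiated cells, 0.26 in aggregates and -0.23 after replating. The last was only just beyond spot noise. The second Sox9 probe gave 0.28 in aggregates and -0.28 after replating. The third Sox9 probe gave 0.26 and 0.14, the latter within spot noise, so it showed no reversal. Sox6 changed by 1.35 in the vector line and by -0.68 in the AICD line between the undifferentiated and the differentiated state. The second and the third of the Sox6 probes gave 1.09 and 0.19 in the vector line, the latter within spot noise, and -0.68 and -1.42 in the AICD line. The fourth was not well above background on 1 of the arrays in each line. No group held 4 arrays, so no single array could be set apart within a group.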

How the results depend on the processing

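No paired analysis was possible because each line and state has 1 array, so no replicate numbers could pair arrays beyond the line and state terms already in the model. The replating count, 0 of 8, became 1 (Sox11) with normexp, with the filter on all 6 arrays and with the trended prior. The counts in this section stand without the share of all genes under the same setting. They show how far the calls move and do not set the Sox genes apart. Leaving out 1 array gave 0 to 4 of 8 on aggregation (0 without either aggregated array), 2 to 5 over the whole course (2, Sox11 and Sox21, without the vector differentiated array), and 0 throughout for the lines and replating. For single states, normexp left 1 gene (Sox6) 2-fold apart between undifferentiated lines, 1 (Sox21) between differentiated lines and 0 in AICD replating. Quantile normalization gave 3 in AICD replating. The authors' deposited table gave 1 of the 1 gene it lists over the whole course in each line. No value was called where its sign was turned. Sox5 was -0.14 on aggregation and -0.40 over the whole course with normexp, and Sox6 was -0.12 over the whole course with the mean of probes. With 1 array left out, Sox5 ranged from -0.34 (no vector differentiated array) to 0.93 over the whole course and from -0.96 to 0.30 (no AICD differentiated array) on replating. Sox6 ranged from -0.63 (no vector undifferentiated array) to 1.30 (no AICD undifferentiated array; adjusted p = 0.0249, called) over the whole course. Sox9 ranged from -1.07 to 0.28 (no AICD differentiated array) on replating. Sox1 ranged from -0.079 (without either differentiated array) to 0.56 between lines and from -1.19 to 0.068 (no vector differentiated array) on replating. The cause was not tested. Of 412 alternative values, 368 kept direction and side. Sox5 and the undifferentiated Sox9 values lie close to background, which limits their folds.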
